A study of Mus musculus with 6 samples.

Results

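The genes described here are 9 genes of the TGF-beta pathway in mouse lung fibroblasts: the receptor-regulated SMADs Smad2 and Smad3, the common SMAD Smad4, the inhibitory SMADs Smad6 and Smad7, the co-repressors Ski and Skil, and the TGF-beta target genes Tgfbi and Pmepa1. They were taken by gene symbol from a table of 55487 genes, each symbol matched 1 gene, and all 9 passed the filter on low counts. The cells, primary fibroblasts from the lungs of wild-type C57BL/6 mice, were grown in 10% serum and starved in 0.1% serum for 24 h. They were then kept for 24 h with recombinant mouse CIRBP (rmCIRBP, 1 µg/mL) or with PBS, and polyA-selected RNA was sequenced from 3 libraries of each group in a single batch. CIRBP is a cold-inducible RNA-binding protein that can act as a danger signal when released from cells, through the innate immune receptor TLR4, and the study concerns how it activates lung fibroblasts. Separate mice or cultures are not stated for the replicates, and the spread behind each p-value is that between these libraries, which may be technical only.

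TGF-beta binds a pair of receptor kinases at the cell surface, which phosphorylate SMAD2 and SMAD3. These join SMAD4, enter the nucleus and bind short DNA elements together with other factors, where SKI and SKIL (also called SnoN) recruit co-repressors to them. SMAD6 and SMAD7 block the receptor step, SMAD6 mostly on the BMP side of the family, and PMEPA1 holds SMAD2 and SMAD3 back from the receptor. In lung fibroblasts the pathway is known for driving matrix production and the myofibroblast state. Smad7, Skil, Pmepa1 and Tgfbi are themselves induced by TGF-beta. SMAD activity is set by phosphorylation, which RNA counts do not measure.

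Depth was 12105584 to 14262375 counts per library, and the 9 genes held 0.0752% to 0.119% of them. Fibroblast genes dominated the marker lists, with 8882 ± 1250 CPM of Col1a1 in rmCIRBP and 10560 ± 1433 CPM in PBS (SD, n = 3 each; CPM, counts scaled to library size as described under the processing). Summed over 8 epithelial markers there were 0.0732 to 0.294 CPM in rmCIRBP and 0.162 to 0.478 CPM in PBS, with Krt8 and Nkx2-1 at 0 in every library. Of 8 neutrophil markers, 5 had no count (S100a9, Elane, Cxcr2, Ly6g and Retnlg), and the sum was 1.23 to 1.69 CPM in rmCIRBP and 0 to 0.249 CPM in PBS. Endothelial markers summed to 6.59 to 8.81 CPM in rmCIRBP and 19.6 to 28 CPM in PBS, with Tie1 and Cldn5 at 0. Most of that sum was Kdr and Tek, with means of 1.24 and 4.26 CPM in rmCIRBP and 13.9 and 8.46 CPM in PBS. Pecam1 and Cdh5 had at most 0.415 CPM in any library, and Vwf and Egfl7 did not pass (edgeR adjusted p = 0.531 and 0.916). Mesothelial markers summed to 4.39 to 10.2 CPM in rmCIRBP and 11.3 to 18.1 CPM in PBS. By edgeR's test the endothelial Kdr and Tek and the mesothelial Upk3b fell, and of 9 fibroblast markers Dcn rose and Thy1 and Vim fell, genes named because they were called. The libraries also differed within groups in contractile genes, a list of 12 that includes Acta2, the smooth muscle actin of myofibroblasts. Its sum was 7962, 16426 and 4289 CPM in rmCIRBP 1, 2 and 3, against 10156, 5615 and 5759 CPM in PBS 1, 2 and 3, so rmCIRBP 2 and PBS 1 stood highest in their groups. Acta2 itself had 3149, 6265 and 1361 CPM in rmCIRBP, against 2716, 1310 and 1101 CPM in PBS. edgeR called 0 of the 12 in either direction, 0 had an unadjusted p under 0.05, and DESeq2 called 0.

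Of the 9 genes, 3 fell with rmCIRBP (Pmepa1, Ski and Tgfbi) and none rose, called with edgeR (quasi-likelihood F test) where the p, adjusted by Benjamini-Hochberg over all 15801 genes tested, was at most 0.05. Over all these genes 11.5% were called, 4.77% downward and 6.74% upward. With upper quartile scaling in place of trimmed means the calls over all genes turned from 1065 higher and 753 lower to 925 higher and 1022 lower, and 3 of the 9 were called there too. At an unadjusted p under 0.05 there were 4 lower and 1 higher, Smad6 and Skil being the additions, and DESeq2 called 4 lower and 0 higher. Both criteria also take more of all genes than the 11.5%. Of the 15801 genes, DESeq2 called 1446 higher and 1172 lower, and an unadjusted edgeR p of 0.0501 stood at rank 4550. The median log2 fold change of the 9 was -0.25, beside -0.01 over all genes tested, and the median of its absolute size was 0.46 beside 0.28. For 5 of the 9 (4 lower, 1 higher) the libraries of the groups did not overlap, where 34.6% of all genes tested had groups that did not overlap (17.1% lower, 17.5% higher). A lower level in a bulk sample cannot tell fewer expressing cells from less RNA per cell.

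**Figure D1:**
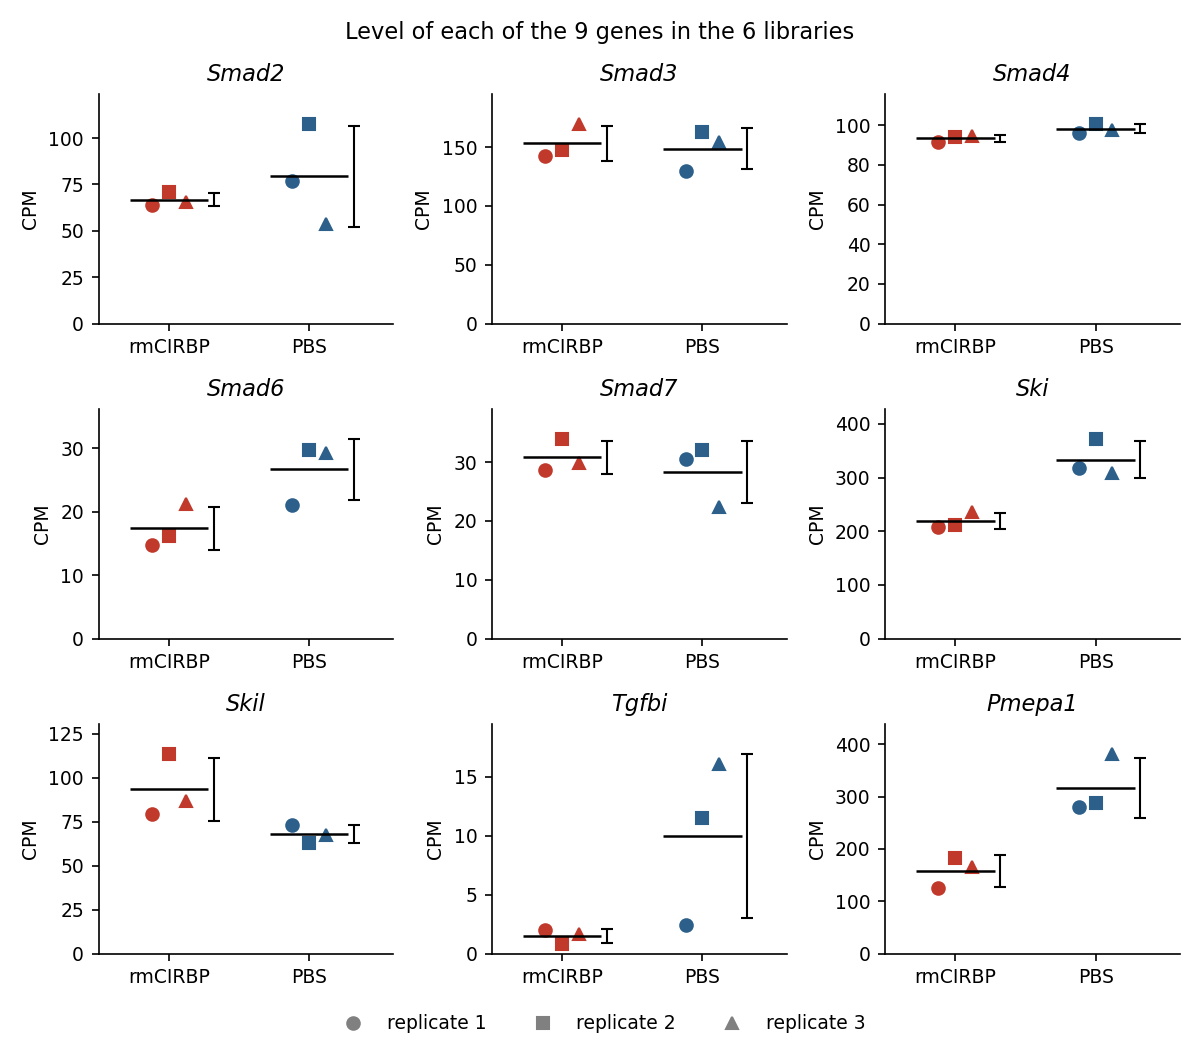
Level of each of the 9 genes in CPM (y axis from 0) in the 3 rmCIRBP libraries (red) and the 3 PBS libraries (blue). Symbols mark the replicate number, horizontal lines the group mean and bars 1 SD; Ski and Pmepa1 are lower in every rmCIRBP library than in every PBS library, and Tgfbi in PBS 1 lies close to the rmCIRBP libraries.

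A pair of promoter stretches is shown because Tgfbi and Ski both fell and are in the RefSeq promoter table (GRCm38.p6), where 4 of the 9 genes were found (Ski, Smad3, Smad6 and Tgfbi). The printed stretches are the part of the 250 bases before the RefSeq start that lies outside the gene as deposited, written 5′ to 3′ along the gene. Capitals mark the SMAD box CAGAC and the GC-rich SMAD element GGCGC, on either strand (GTCTG and GCGCC). The letters GGCGCC hold the GC-rich element on both strands and so count for each. The Tgfbi stretch is chr13:56609336-56609522 on the plus strand and the Ski stretch is chr4:155222593-155222785 on the minus strand.
Tgfbi: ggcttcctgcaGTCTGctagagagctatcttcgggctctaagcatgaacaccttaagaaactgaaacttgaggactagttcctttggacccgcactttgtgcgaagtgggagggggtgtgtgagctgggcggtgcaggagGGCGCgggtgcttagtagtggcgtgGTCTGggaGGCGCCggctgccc
Ski: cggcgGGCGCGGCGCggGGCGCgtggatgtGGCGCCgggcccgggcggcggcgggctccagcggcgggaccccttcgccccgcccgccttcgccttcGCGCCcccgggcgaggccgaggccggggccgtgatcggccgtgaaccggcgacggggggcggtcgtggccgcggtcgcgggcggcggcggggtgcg
In the 250 bases Tgfbi held 2 SMAD boxes and 3 GC-rich elements, and Ski held 0 SMAD boxes and 7 GC-rich elements, of which 6 lie in the stretch shown. Of 32851 promoter windows of that length, 42.2% held a SMAD box and 32% a GC-rich element, so both sets of letters are common. The Ski window was 87.6% G or C, the Tgfbi window 62.4%, and the median over all windows was 52.4%. Smad3 held neither and Smad6 held 1 GC-rich element, and the palindrome GTCTAGAC (0.167% of windows) and the AP-1 letters TGANTCA (6.75%) were in none of the 4. A match of letters is not evidence that a factor binds there.

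The receptor-regulated and common SMADs, which carry the signal, did not pass the test. Smad3 (chromosome 9, 63646767 to 63757994, GRCm38) had 142, 147 and 170.0 CPM in rmCIRBP, against 129, 163 and 154 CPM in PBS, and the groups overlapped throughout. Its log2 fold change was 0.04 ± 0.13 (SE; 95% interval -0.25 to 0.34; edgeR adjusted p = 0.856), and its sign turned with upper quartile scaling (-0.02). Smad4 (chromosome 18, 73639009 to 73703780) was the steadiest of the 9, at 91.5, 94.2 and 94.6 CPM in rmCIRBP and 96.3, 101 and 97.7 CPM in PBS. Every rmCIRBP library lay below every PBS library, yet the log2 fold change was only -0.07 ± 0.09 (95% interval -0.28 to 0.13; edgeR adjusted p = 0.619). An opposite-strand pseudogene, Gm50126, lies within Smad4 and had 6 counts in all.

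Smad2 (chromosome 18, 76241580 to 76310963) varied more among the controls than between the groups. It had 64.1, 70.8 and 65.6 CPM in rmCIRBP, against 76.6, 108 and 53.6 CPM in PBS. The highest PBS library was 2.01 times the lowest, and the corresponding ratio in rmCIRBP was 1.10. Its log2 fold change was -0.25 ± 0.22 (95% interval -0.76 to 0.27; edgeR adjusted p = 0.508) and turned to 0.05 without PBS 2, so no direction is given for it. Per kilobase of exon, the unit that allows genes to be compared, Smad3 stood at 3.51, 3.29 and 4.11 times Smad2 in rmCIRBP and at 2.68, 2.39 and 4.55 times in PBS.

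Between the inhibitory SMADs the values leaned different ways, and neither passed. Smad6 (chromosome 9, 63953076 to 64022059), which chiefly restrains BMP signalling, had 14.8, 16.2 and 21.2 CPM in rmCIRBP, against 21.1, 29.8 and 29.2 CPM in PBS. The groups met at rmCIRBP 3 and PBS 1 and were otherwise apart, with a log2 fold change of -0.62 ± 0.19 (95% interval -1.06 to -0.17; edgeR adjusted p = 0.0776). DESeq2 called it lower (adjusted p = 0.0423), as did edgeR without PBS 1 (0.0365). Over all 16 alternatives the edgeR, DESeq2 or voom adjusted p of Smad6 ran from 0.0365 to 0.237. Smad7 (chromosome 18, 75367529 to 75395935), the feedback inhibitor of the TGF-beta receptor, had 28.6, 34.0 and 29.9 CPM in rmCIRBP, against 30.6, 32 and 22.3 CPM in PBS. Its highest library was in rmCIRBP and its lowest in PBS, but the ranges overlapped (log2 fold change 0.12 ± 0.16; 95% interval -0.24 to 0.49; edgeR adjusted p = 0.651), and the sign turned without PBS 3 (-0.02). Whether the changes of Smad6 and Smad7 differ from each other was not tested.

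Counted per kilobase of exon, the 8 SMAD genes of the mouse, Smad1, Smad5 and Smad9 of the BMP side included, summed to 89.5, 94.0 and 97.7 CPM per kilobase in rmCIRBP and to 91.0, 105 and 93.0 in PBS. The sums overlapped. Smad3 and Smad4 were the main components, at 29.4% ± 1.71 and 26.9% ± 0.749 of the sum in rmCIRBP and 27.8% ± 2.11 and 27.6% ± 1.47 in PBS (SD, n = 3 each). The share of Smad6 was 5.78% ± 0.871 in rmCIRBP and 8.62% ± 1.30 in PBS, and the share of Smad7 was 7.28% ± 0.646 and 6.49% ± 1.09. Smad6 and Smad7 together made 12.2%, 13.4% and 13.5% of the SMAD level in rmCIRBP, against 14.7%, 15.6% and 15.1% in PBS. These summed shares did not overlap between the groups. The share of Smad6 alone did not overlap either, being lower in rmCIRBP, while that of Smad7 overlapped and was higher on average. Groups that did not overlap in CPM were found for 34.6% of all genes tested, and neither Smad6 nor Smad7 passed the test.

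**Figure D2:**
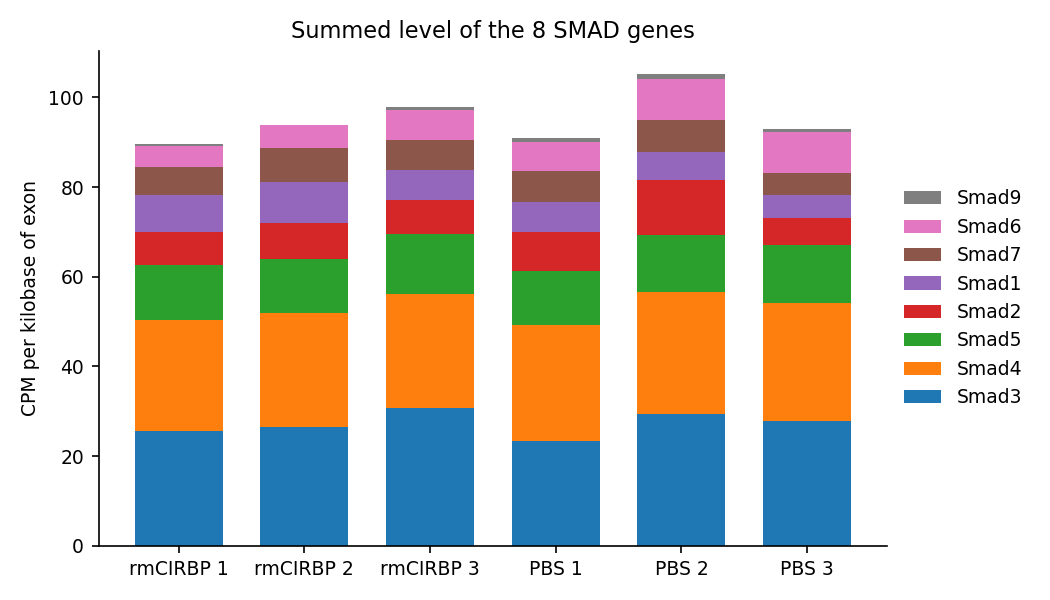
Stacked levels of the 8 SMAD genes in CPM per kilobase of exon (y axis from 0) in each rmCIRBP and PBS library. Smad3 and Smad4 fill more than any other gene in all 6 bars, whose heights run from 89.5 to 105 CPM per kilobase, and the Smad6 segment is thinnest in rmCIRBP 1 and 2.

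The co-repressors Ski and Skil, which are related in sequence and both bind SMADs, had fold changes of opposite sign. Ski (chromosome 4, 155154075 to 155222592) fell to 207, 212 and 235 CPM in rmCIRBP, against 318, 373 and 309 CPM in PBS. The highest rmCIRBP library was well under the lowest PBS library, and the spread within each group was narrow, the highest library being 1.13 and 1.21 times the lowest in rmCIRBP and PBS. The log2 fold change was -0.61 ± 0.12 (95% interval -0.89 to -0.33; edgeR adjusted p = 0.0186). Over the 16 alternatives it ran from -0.67 to -0.51, and 13 of them called it. Of the 6 fits with 1 library left out, those without rmCIRBP 1 (adjusted p = 0.0893) and PBS 2 (0.0791) did not. The fit with the replicate number as a block did not call Ski either (edgeR adjusted p = 0.0541).

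Skil (chromosome 3, 31095058 to 31122577) had 79.5, 114 and 86.9 CPM in rmCIRBP, against 73.1, 62.9 and 67.3 CPM in PBS. All 3 rmCIRBP libraries were above all 3 PBS libraries, and rmCIRBP 2, the library richest in contractile genes, was the highest. The log2 fold change was 0.46 ± 0.15 (95% interval 0.12 to 0.80) and missed the threshold (edgeR adjusted p = 0.0830). It was 0.30 without rmCIRBP 2 and 0.36 without rmCIRBP 2 and PBS 1 together. Per kilobase of exon, Skil stood at 0.220, 0.307 and 0.212 of the Ski level in rmCIRBP and at 0.132, 0.0969 and 0.125 in PBS. The ratio was thus higher in each rmCIRBP library than in any PBS library, with Ski the more abundant of the pair in all 6.

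Of the target genes, Pmepa1 had the smallest p of the 9. Pmepa1 (chromosome 2, 173224458 to 173276533) encodes a membrane protein that binds SMAD2 and SMAD3 and limits TGF-beta signalling. It fell to 125, 183 and 165 CPM in rmCIRBP, against 280.2, 288 and 382 CPM in PBS, with no overlap. The fold was 0.498 of the PBS level (log2 fold change -1.01 ± 0.18; 95% interval -1.43 to -0.58; edgeR adjusted p = 0.0131). Without rmCIRBP 1, its lowest library, the log2 fold change was -0.86 and the adjusted p 0.0515, and the 15 other alternatives all called it lower. Against the contractile sum Pmepa1 had no constant order: it was highest in rmCIRBP 2 among the rmCIRBP libraries and lowest in PBS 1 among the PBS libraries.

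Tgfbi (chromosome 13, 56609523 to 56639562) encodes a secreted matrix protein that binds collagens and integrins. It was the scarcest of the 9 and had the largest fold, at 1.98, 0.794 and 1.68 CPM in rmCIRBP, against 2.41, 11.5 and 16.1 CPM in PBS. These levels rest on 27, 11 and 23 counts in rmCIRBP and on 29, 142 and 236 counts in PBS. PBS 1 lay just above the rmCIRBP libraries and far below the other PBS libraries, the highest of which was 6.69 times PBS 1. The log2 fold change was -2.75 ± 0.67 (95% interval -4.29 to -1.22; edgeR adjusted p = 0.0363), with the mean at 1.49 ± 0.618 CPM in rmCIRBP and 10.0 ± 6.97 CPM in PBS (SD, n = 3 each).

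The call of Tgfbi was the least stable of the 3, made by 9 of the 16 alternatives. These 9 include the fit without rmCIRBP 2 and PBS 1, which was chosen after seeing the data. With 1 library left out, it ended by edgeR's test without rmCIRBP 1 (adjusted p = 0.0912), rmCIRBP 2 (0.0703), rmCIRBP 3 (0.0727), PBS 2 (0.115) or PBS 3 (0.124), where the log2 fold change ran from -3.01 to -2.22, and voom did not call it (0.127). The fit with the replicate number as a block did not call Tgfbi either (log2 fold change -2.51, edgeR adjusted p = 0.0769). Without PBS 1 the log2 fold change was -3.20 (edgeR adjusted p = 0.00407). Tgfbi was lowest in its group in rmCIRBP 2 and in PBS 1, the libraries with the most contractile transcripts, and with both left out the log2 fold change was -2.91 (adjusted p = 0.000821). Macrophages are known to express Tgfbi as well. Of 9 macrophage markers, C1qa, C1qb and Mrc1 fell and Marco and Adgre1 rose, genes named after their values were seen, and the sum, mostly Lyz2, the lysozyme of myeloid cells, was 132, 145 and 74.1 CPM in rmCIRBP and 121, 160 and 138 CPM in PBS. C1qb, a complement subunit, was at 1.47, 1.73 and 0.659 CPM in rmCIRBP and 3.82, 6.25 and 3.00 CPM in PBS, Mrc1, the mannose receptor, at 1.10, 1.44 and 0.586 CPM in rmCIRBP and 2.66, 3.98 and 3.28 CPM in PBS. Lyz2 had 86.8, 91.6 and 44.4 CPM in rmCIRBP, against 92.6, 124 and 111 CPM in PBS, and did not pass (edgeR adjusted p = 0.199). The markers that rose moved against Tgfbi: Marco, a scavenger receptor, was at 8.52, 14.5 and 6.37 CPM in rmCIRBP and 0.166, 0.162 and 0.273 CPM in PBS. Adgre1, the F4/80 antigen, was at 10.4, 11.3 and 5.20 CPM in rmCIRBP and 1.58, 1.87 and 1.43 CPM in PBS. PBS 1, the PBS library lowest in Tgfbi, was also the lowest of the PBS libraries in the marker sum and in Mrc1, but not in C1qb. In rmCIRBP the orders differed: rmCIRBP 2, the library lowest in Tgfbi, was highest in the marker sum, Mrc1 and C1qb. The library lowest in these, rmCIRBP 3, lay between the others in Tgfbi. The part of contractile or macrophage transcripts in the Tgfbi difference was not tested.

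**Figure D3:**
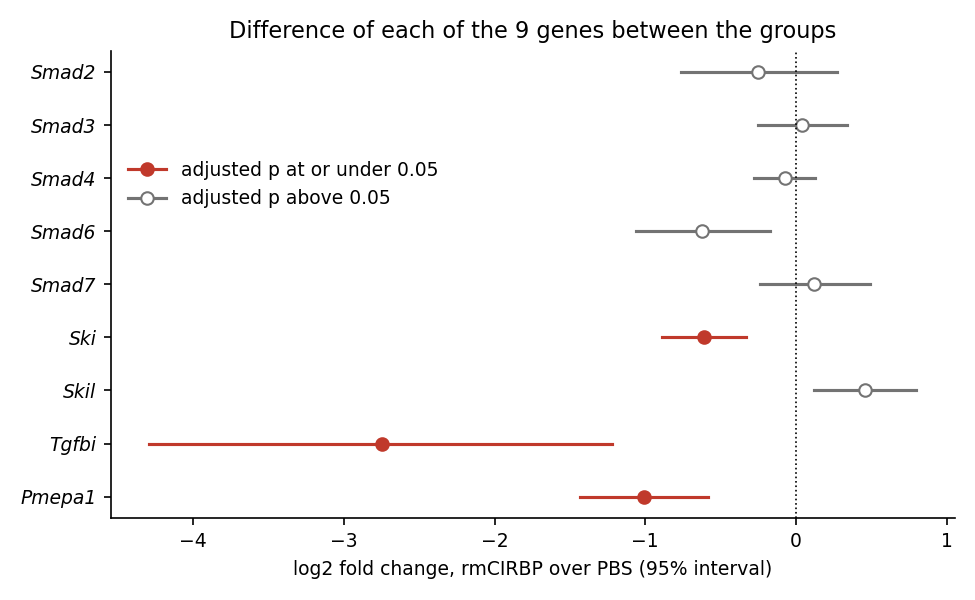
Log2 fold change of each of the 9 genes, rmCIRBP over PBS (x axis), with its 95% interval; filled red points have an edgeR adjusted p at or under 0.05. The points called are Ski (-0.61), Tgfbi (-2.75) and Pmepa1 (-1.01); the intervals of Smad2, Smad3, Smad4 and Smad7 include 0.

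**Figure D4:**
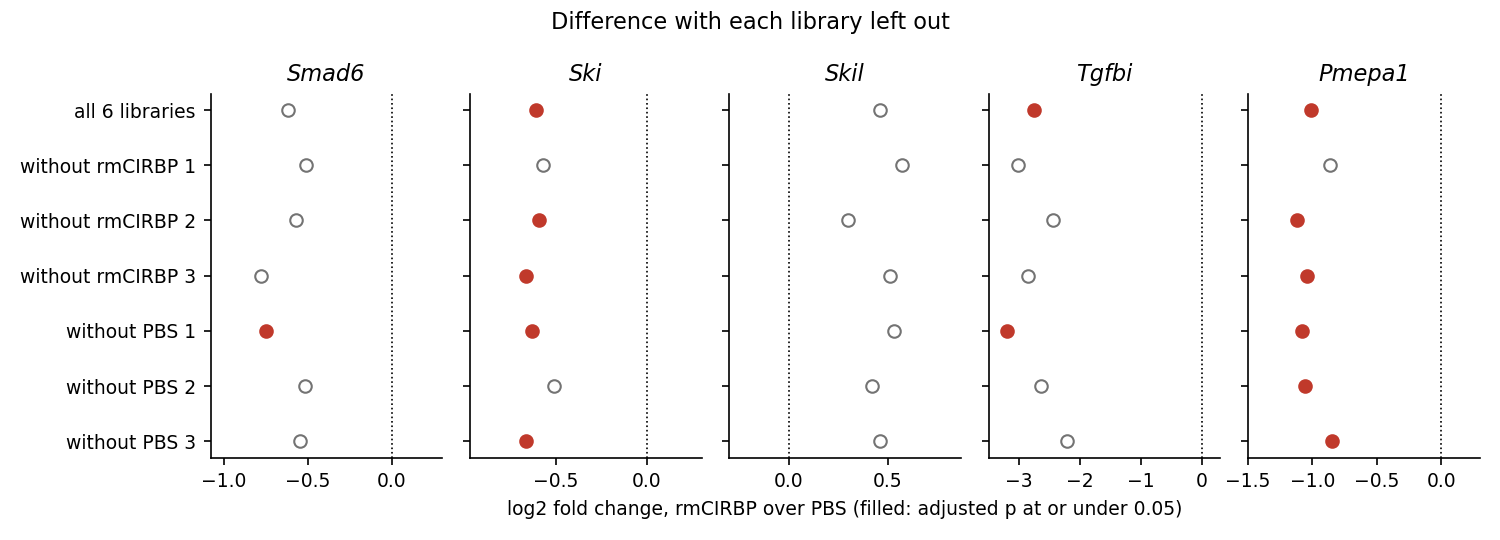
Log2 fold change (x axis, its own scale in each panel) of the 5 genes with an unadjusted p under 0.05, with all 6 libraries and with each left out in turn; filled red points have an edgeR adjusted p at or under 0.05. Every point keeps its side of 0; Smad6 is filled without PBS 1 alone, Skil nowhere, and Tgfbi with all libraries and without PBS 1.

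Ordered by level per kilobase of exon, the 9 genes ran in rmCIRBP from Ski (39.3 ± 2.67 CPM per kilobase; SD, n = 3) over Pmepa1 (32.1 ± 6.05), Smad3 (27.6 ± 2.69), Smad4 (25.2 ± 0.445), Skil (9.63 ± 1.85), Smad2 (7.61 ± 0.402), Smad7 (6.82 ± 0.622) and Smad6 (5.44 ± 1.05) to Tgfbi (0.394 ± 0.164). In PBS the order began with Pmepa1 (64.5 ± 11.6) and Ski (59.9 ± 6.21), whose ranges overlapped, and went on with Smad3 (26.8 ± 3.11) and Smad4 (26.5 ± 0.639), which lay within their spread of each other. Smad2 (9.03 ± 3.10), Smad6 (8.33 ± 1.52), Skil (6.99 ± 0.529) and Smad7 (6.26 ± 1.16) followed, each overlapping its neighbour, and Tgfbi (2.66 ± 1.85) was lowest. In rmCIRBP the neighbours Ski and Pmepa1, Pmepa1 and Smad3, Smad2 and Smad7, and Smad7 and Smad6 overlapped, while Smad3 lay just above Smad4 in range and Smad4 far above Skil.

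The genes whose profile over the 6 libraries came nearest to Pmepa1 were Efnb2, an ephrin ligand, Plpp1, a lipid phosphatase, and Gucy1a2, a subunit of soluble guanylate cyclase. Nearness was the root mean square difference of log2 CPM centred on each gene's mean, among 9488 protein-coding genes with a mean of at least 10 CPM, and it was 0.12, 0.12 and 0.13. Efnb2 had 95.6, 118 and 102 CPM in rmCIRBP, against 166, 176 and 235 CPM in PBS, with PBS 3 the highest as for Pmepa1. Nearest to Ski were Maml2, a Notch coactivator (0.03), Pam16, of the mitochondrial import motor (0.05), and Lypd1 (0.07). Maml2 followed Ski closely, at 92.3, 91.6 and 104 CPM in rmCIRBP and 137, 155 and 136 CPM in PBS. These profiles share 6 libraries and are dominated by the difference between the groups, so they are a description.

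Beyond the 9, 90 other genes of the pathway were listed by role. Of the 87 tested, 12 rose and 3 fell, which is 17.2% called, beside 11.5% of all genes, and their median log2 fold change was 0.09. Among 13 tested ligand and receptor genes of the TGF-beta and activin group, 2 rose and none fell by edgeR's test (4 higher and 1 lower at an unadjusted p under 0.05; 3 and 0 by DESeq2). Acvr1b, the activin type I receptor ALK4, which also signals through SMAD2 and SMAD3, rose to 133, 85.2 and 164 CPM in rmCIRBP, against 34.3, 35.0 and 32.1 CPM in PBS (edgeR adjusted p = 0.00192; log2 fold change 1.91 ± 0.22). The ligand gene Tgfb1 rose to 37.8, 52.3 and 32.2 CPM in rmCIRBP, against 23.5, 22.7 and 21.2 CPM in PBS (log2 fold change 0.86 ± 0.18), and the edgeR call of the gene (adjusted p = 0.0226) ended without rmCIRBP 1 (0.0620), PBS 2 (0.0868) or PBS 3 (0.0918). The receptors Tgfbr1 and Tgfbr2 had log2 fold changes of 0.16 ± 0.13 and -0.11 ± 0.12 and did not pass (edgeR adjusted p = 0.449 and 0.581); they are named after their values were seen.

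Of the 3 BMP-side SMADs edgeR and DESeq2 called 0, with 1 higher and 1 lower at an unadjusted p under 0.05. Smad1 had 50.9, 57.8 and 42.8 CPM in rmCIRBP, against 42.7, 39.4 and 32.2 CPM in PBS, with rmCIRBP 3 just above PBS 1 (log2 fold change 0.41 ± 0.15; edgeR adjusted p = 0.124). Among 22 SMAD anchors, ubiquitin ligases, deubiquitinases and phosphatases, 2 rose and none fell (4 higher and 3 lower at an unadjusted p under 0.05; 3 and 0 by DESeq2), and the list's median was 0. Over all genes tested edgeR called 11.5%, with 6.74% upward and 4.77% downward. Nedd4l, a ubiquitin ligase known to degrade activated SMAD2 and SMAD3, rose to 36.9, 44.7 and 35.4 CPM in rmCIRBP, against 16.9, 16.4 and 14.3 CPM in PBS (log2 fold change 1.29 ± 0.14; edgeR adjusted p = 0.00137). Ldlrad4, a relative of Pmepa1 that also holds SMADs from the receptor, rose to 52.9, 62.5 and 53.0 CPM in rmCIRBP, against 43.6, 40.0 and 42.3 CPM in PBS (log2 fold change 0.42 ± 0.11). Its edgeR call (adjusted p = 0.0454) ended when any of the 6 libraries was left out (0.0582 to 0.146), and among the scalings with library size (0.0587) or upper quartile (0.0747). The call also ended with the replicate number as a block (edgeR adjusted p = 0.113).

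SMAD nuclear partners had 3 genes of 20 tested that rose and none that fell (4 higher and 1 lower at an unadjusted p under 0.05; 3 and 0 by DESeq2). The edgeR calls over all genes were 6.74% upward and 4.77% downward. Runx1, a transcription factor that binds SMADs, rose to 66.6, 69.8 and 63.7 CPM in rmCIRBP, against 16.9, 15.1 and 7.16 CPM in PBS (log2 fold change 2.36 ± 0.28; edgeR adjusted p = 0.00207). Zeb2, a SMAD-binding repressor, rose by 0.74 ± 0.12 and Tgif1, a SMAD co-repressor, by 0.63 ± 0.11 on the log2 scale (edgeR adjusted p = 0.00875 and 0.0105). The call of Tgif1 ended without rmCIRBP 1 (edgeR adjusted p = 0.0532). The co-repressor genes Ncor1 (0.10), Sin3a (0.16) and Hdac1 (0.19), named after their values were seen, did not pass (edgeR adjusted p = 0.564, 0.335 and 0.280).

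TGF-beta targets other than Tgfbi and Pmepa1 went both ways: of 29 tested, 5 rose and 3 fell, beside 11.5% called of all genes. At an unadjusted p under 0.05 there were 7 higher and 5 lower, and DESeq2 called 7 higher and 5 lower. The median log2 fold change of the list was 0.31. The list was not split by the direction in which TGF-beta moves each gene. Itga11, a collagen-binding integrin subunit, fell to 6.17, 12.8 and 7.25 CPM in rmCIRBP, against 50.2, 59.4 and 35.5 CPM in PBS (log2 fold change -2.46 ± 0.30; edgeR adjusted p = 0.00251). Id2, an inhibitor of helix-loop-helix factors, Spsb1, an adaptor of ubiquitin ligases, and Ltbp2 of the latent TGF-beta binding protein family rose by 1.58 ± 0.13, 0.80 ± 0.09 and 1.26 ± 0.17 on the log2 scale (edgeR adjusted p = 0.000363, 0.00169 and 0.00337). The 4 further calls, which the naming rule does not cover, were Angptl4 (2.10) and Elk3 (0.59), which rose, and Itgb5 (-0.66) and Snai2 (-0.64), which fell, and they were picked with their values in view. The edgeR calls of these ended without PBS 2 for Angptl4 (adjusted p = 0.0609), without PBS 2 or PBS 3 for Elk3 (0.0575 and 0.0520), without rmCIRBP 1 for Itgb5 (0.0583), and without rmCIRBP 1, rmCIRBP 2, PBS 1, PBS 2 or PBS 3 for Snai2 (0.0565 to 0.136).

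Ccn2, the connective tissue growth factor often used as a readout of SMAD signalling, did not pass and is named after its values were seen. It had 358, 1620 and 472 CPM in rmCIRBP, against 799, 495 and 307 CPM in PBS. It was highest in rmCIRBP 2 and PBS 1 of its groups, the same libraries in which the contractile sum was highest, and the groups overlapped (edgeR adjusted p = 0.522). Skil was highest in these libraries of its groups too, while Tgfbi was lowest in them.

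**Figure D5:**
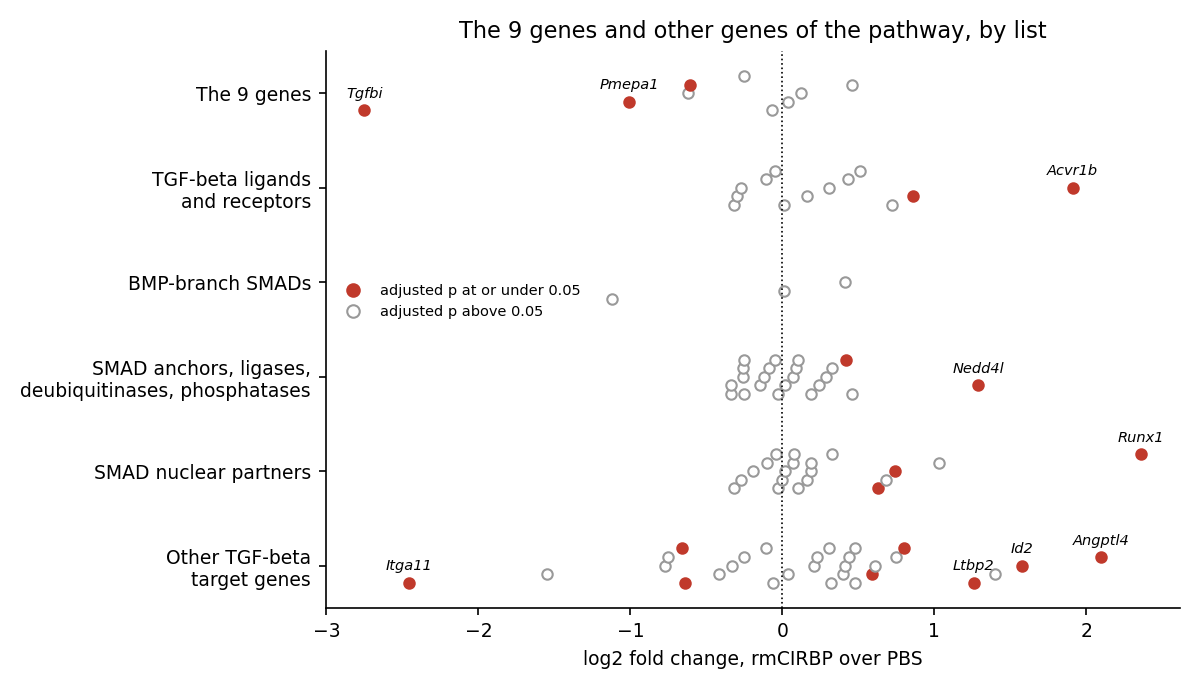
Log2 fold change, rmCIRBP over PBS (x axis), of the 9 genes and of the other tested genes of the pathway by list (rows; points are spread vertically to be seen); filled red points have an edgeR adjusted p at or under 0.05. Called points lie left of 0 for the 9 genes, right of 0 for ligands, receptors, SMAD regulators and nuclear partners, and on both sides for the other targets.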

How the data were processed

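RNA was sequenced from 3 rmCIRBP and 3 PBS libraries. The authors deposited raw counts per gene, made with featureCounts on GRCm38 (mm10), per the submitters' processing notes, which also name DESeq2 and R 4.1.2. Aligner, annotation release and strand setting were not given in the sources used here, so reads of antisense partners cannot be told apart. Columns were matched to samples by group and number in the titles, leaving 0 unmapped.

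Counts were filtered with filterByExpr by group, leaving 15801 of 55487 genes, scaled by trimmed means (TMM) and tested in R 4.3.3 with edgeR 4.0.16 (quasi-likelihood F test, two-sided, intercept and treatment), with Benjamini-Hochberg adjustment over all genes tested. Each standard error is the log2 fold change over the square root of F, and 95% intervals use the t distribution. CPM use the TMM-scaled library size, and the floor of 3 counts set for a gene with none is 0.205 to 0.249 CPM, counting error only. Exon lengths are the union of exons in GENCODE M21, where all 9 genes have the deposited start and end. Promoters are from RefSeq. Alternatives were DESeq2 1.42.0, limma voom 3.58.1, a robust fit, other scalings and filters, the replicate number as a block, and leaving out each library. Every pair of libraries differed beyond sampling noise (chi-square per degree of freedom at least 14.2).

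The 9 genes and the lists were chosen with earlier results of these data known. Named are the 9 genes, up to 4 called genes of each pathway list by smallest p (otherwise the 1 with the smallest p), the 3 nearest profiles of the 2 genes with the smallest p, and up to 2 abundant genes of each marker list. Other marker genes are named outside this rule because they were called, had no count or complete the endothelial list.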

Additional observations from a re-analysis of the deposited data

How the results depend on the processing

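Of the 9 genes, 3 were called. The count was 5 with no filter on low counts, where Smad6 (-0.60) and Skil (0.48) joined and 2607 of 28056 genes were called. With 1 library left out the count ran from 0 to 4, being 0 without rmCIRBP 1 and 1 without PBS 2. Without rmCIRBP 1, 5 of the 9 had an unadjusted p under 0.05 by edgeR. The share of all genes under that p in the same fit was not counted. DESeq2 added Smad6 (-0.62), and voom lost Tgfbi (-2.50). Whether the replicate numbers pair the libraries is not stated, and with 3 libraries per group the correlations cannot settle it. Same-numbered deviations from the group mean correlated at -0.0918, -0.152 and 0.229, and not every library correlated best with its own number. With the replicate numbers as a block, 1 of the 9 and 1258 of all genes were called. Ski (-0.61, edgeR adjusted p = 0.0541), Tgfbi (-2.51, adjusted p = 0.0769) and Ldlrad4 (adjusted p = 0.113) were then not called. Over all genes the count was 1818, and 723 to 2144 with 1 library left out, being lowest without PBS 2 (723), rmCIRBP 1 (742) and PBS 3 (863).

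Leaving out each library gave log2 fold changes of -0.46 to 0.05 for Smad2, -0.04 to 0.12 for Smad3, -0.78 to -0.51 for Smad6, -0.02 to 0.23 for Smad7, -0.66 to -0.51 for Ski, -3.20 to -2.22 for Tgfbi and -1.12 to -0.85 for Pmepa1. Smad3 was at -0.02 with upper quartile scaling. Leaving out rmCIRBP 2 and PBS 1 together, chosen after seeing the data, gave 2802 genes, 4 of the 9 with Smad6 (-0.71), 24 of the other pathway genes (15 with all libraries, 10 to 19 with 1 library left out) and -0.01 for Smad3. The causes were not tested, except that leaving out libraries also lowers the number of samples. At 11 to 236 counts per library, Tgfbi is the gene of the 9 that depth limits most.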
